A study of Mus musculus with 5 samples.

Results

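Immediate early transcription factors are described here as a set of 10 genes of the Fos, Jun, Egr and Nr4a families, namely Fos, Fosb, Junb, Egr1, Egr2, Egr3, Egr4, Nr4a1, Nr4a2 and Nr4a3. They were chosen by name, with the difference between the treated and the control eyes already known, from the 33636 genes of the count table. Of the 10 members, 9 were among the 17432 genes that exceeded 10 counts in at least 2 libraries. Egr2, with 5 to 12 counts per library, did not pass and has no fitted value.

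The retinas came from male wild-type C57BL/6J mice with form-deprivation myopia (FDM) of 1 eye. A diffuser goggle fixed to the head blurred the right eye for 2 weeks from postnatal day 28, and retinas were collected in the light phase at day 42. The uncovered left eye of the same animals was the control. The 5 libraries analysed are FDM retinas of mice 1 and 3 and control retinas of mice 1, 2 and 3, each numbered here by its mouse, so that FDM 1 and Control 1 are the eyes of one animal, as are FDM 3 and Control 3. The goggled eye was 1.47 diopters more myopic than its partner in mouse 1 and 2.19 diopters more myopic in mouse 3.

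Immediate early genes are transcribed within minutes of a stimulus, without the need for newly made protein, when calcium, cAMP or growth factor signals reach transcription factors already bound to their promoters, chiefly CREB at cAMP response elements (CRE) and SRF at serum response elements. Their products are themselves transcription factors. Fos and Fosb pair with Jun proteins such as Junb to form AP-1, the Egr proteins bind GC-rich sites through zinc fingers, and the Nr4a proteins are orphan nuclear receptors. In the retina the level of these transcripts and proteins follows light and neuronal activity, and Egr1 in amacrine cells has long been studied in the visual control of eye growth.

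RefSeq start sites were available for 8 members, all but Egr1 and Egr3, and the 250 bases before each start were searched on both strands. The core of the CRE, spelled TGACG on one strand and CGTCA on the other, was found at 8 of 8 genes, and at 19.8% of all 27025 genes in the same RefSeq table. The sequences below show it in each of the 3 families, with cores in capitals, together with the EGR motif of Nr4a1 (GCGNGGGCG, read there on the opposite strand) and the TATA box of Fos (TATAAA). Each is printed 5′ to 3′ on the strand of its gene, from RefSeq on GRCm38.p6. The Fos sequence lies at chr12:85473640-85473889 on the plus strand and ends where the annotated gene begins. For Egr4 the stretch is chr6:85513590-85513839 on the minus strand, also directly before the gene. The Nr4a1 window is chr15:101266596-101266845 on the plus strand, in an intron of the longer annotated transcripts and before a RefSeq start inside the gene. Only the 98 bases of the Nr4a3 window that precede the annotated gene are given, chr4:48045055-48045152 on the plus strand.
Fos: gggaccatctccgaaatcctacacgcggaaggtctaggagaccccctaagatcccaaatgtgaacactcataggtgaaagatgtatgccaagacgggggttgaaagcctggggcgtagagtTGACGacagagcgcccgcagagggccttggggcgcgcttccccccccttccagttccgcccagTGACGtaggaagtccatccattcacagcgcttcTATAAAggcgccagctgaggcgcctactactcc
Egr4: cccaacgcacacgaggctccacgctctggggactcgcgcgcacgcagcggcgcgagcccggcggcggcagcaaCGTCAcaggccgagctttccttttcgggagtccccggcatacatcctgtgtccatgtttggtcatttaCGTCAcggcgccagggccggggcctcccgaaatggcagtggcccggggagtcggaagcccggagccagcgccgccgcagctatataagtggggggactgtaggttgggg
Nr4a1: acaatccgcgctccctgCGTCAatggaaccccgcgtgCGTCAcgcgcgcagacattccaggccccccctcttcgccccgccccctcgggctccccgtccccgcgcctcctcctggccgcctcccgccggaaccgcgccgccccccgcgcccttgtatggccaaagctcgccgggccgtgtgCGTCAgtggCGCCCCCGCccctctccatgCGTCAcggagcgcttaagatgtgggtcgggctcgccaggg
Nr4a3: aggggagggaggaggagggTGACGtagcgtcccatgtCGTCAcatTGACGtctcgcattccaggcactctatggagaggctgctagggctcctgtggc

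In Fos 1 core lay between 66 and 62 bases before the start, next to the TATA box at 33 to 28 bases, and another lay between 129 and 125 bases before it. Nr4a1, Nr4a2 and Nr4a3 held 4 cores each. The full palindrome TGACGTCA, which contains the core on both strands, was at 0 of 8 members and at 1.77% of all genes. The EGR motif was found at 3 members, Fosb, Nr4a1 and Nr4a2, against 5.33% of all genes. A serum response element was matched at 1 member, Egr2, against 1.62%. Neither the AP-1 site (TGANTCA, 7.82% of genes) nor the Nr4a response element (AAAGGTCA, 1.55% of genes) was found at any of the 8. Member windows ranged from 54% to 80% GC, and the median of all windows was 52.4%. A match is a stretch of letters and does not show binding.

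**Figure D1:**
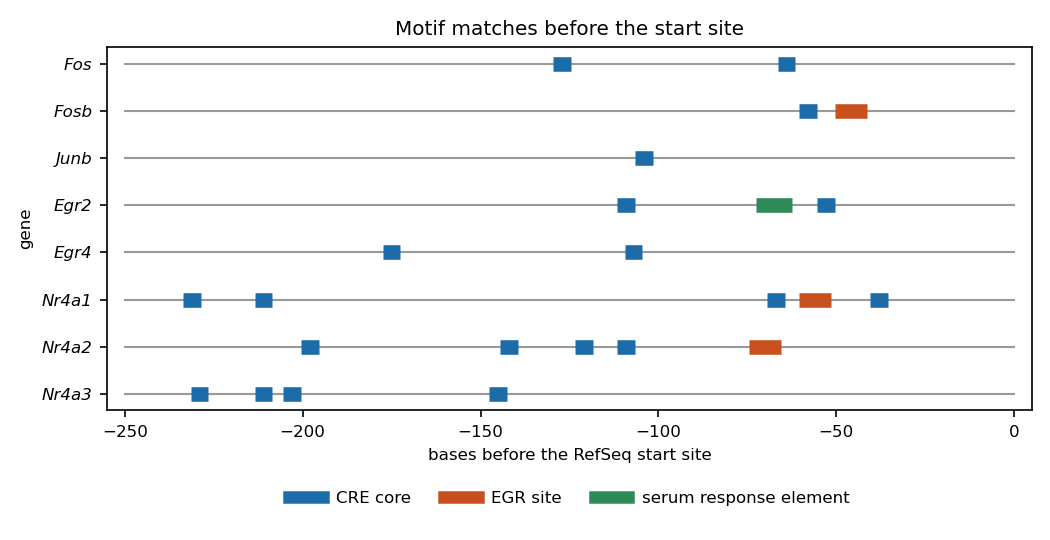
Positions of motif matches in the window before the RefSeq start site of 8 members (horizontal axis, bases; for Egr2 1 of its annotated starts is drawn). Boxes mark the CRE core, the EGR site and the serum response element. Each of the 8 genes carried at least 1 CRE core.

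The libraries held 40599047 to 56534931 estimated counts, and at that depth 3 counts equal 0.0526 to 0.0751 counts per 1e6 (CPM, here scaled by library factors). The tissue label fitted its markers, since 10 of 10 photoreceptor markers were detected and summed to 50876 to 63979 CPM. Other tissues differed between libraries. Markers of the retinal pigment epithelium (RPE), the layer behind the retina, summed to 77.4 and 69.4 CPM in FDM 1 and FDM 3, and to 78.7, 246 and 233 CPM in Controls 1, 2 and 3. All 12 were detected, and 5 were lower in both FDM libraries than in every control. Lens markers summed to 2187 CPM in FDM 3 and to 3.05 to 21.4 CPM elsewhere, and skeletal muscle markers to 64.7 CPM in Control 3 and 9.31 to 10.9 CPM elsewhere. Within mouse 1 the summed level of each of the 10 marker lists in FDM 1 was 0.945 to 1.03 times that in Control 1. Single RPE markers there differed more, from 0.154 times for Slc26a4 (5 and 30 counts) to 1.80 times for Pmel (133 and 68 counts), and Ttr made up 32.0 of the 77.4 CPM in FDM 1. In bulk tissue, fewer cells of a type and less RNA per cell cannot be told apart.

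Per kilobase of exon, Fos, Egr1 and Nr4a1 were the most abundant members, with medians over the 5 libraries of 17.1, 16.6 and 16.3 CPM per kb. Their ranges overlapped almost wholly (12.2 to 23.9, 6.58 to 26.5 and 11.9 to 21.5 CPM per kb), so their order is not resolved, and dividing by the longest transcript instead placed Nr4a1 first. Junb followed at a median of 7.25 CPM per kb and Nr4a2 at 2.41 CPM per kb. Fosb, Nr4a3 and Egr4 formed an overlapping group at 0.677, 0.670 and 0.526 CPM per kb. Egr3 and Egr2 were near the limit of counting, at 0.110 and 0.0543 CPM per kb, and also overlapped.

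**Figure D2:**
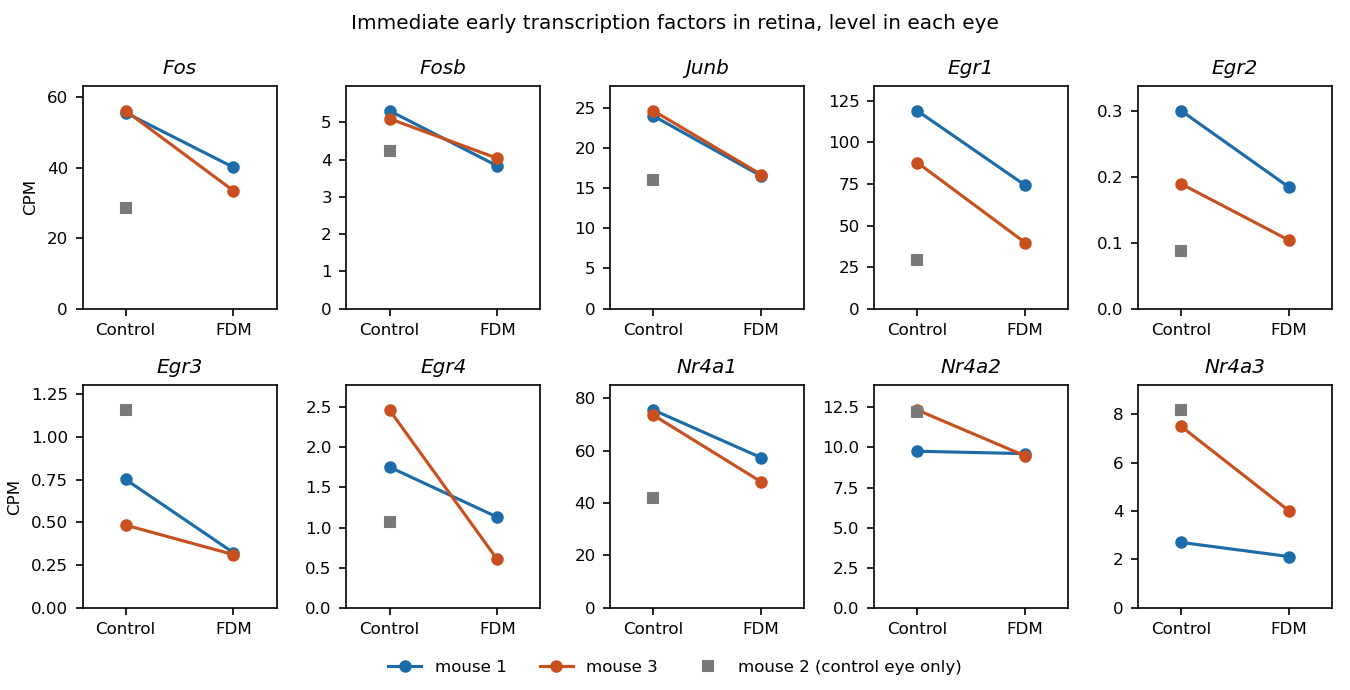
CPM of each member in every library (vertical axis from 0, a separate scale for each gene). Lines join the control and the FDM eye of mouse 1 and of mouse 3, and the square is the control eye of mouse 2, whose partner is not among the 5 libraries. All 20 lines fall from control to FDM, while the square lies below the other control eyes for Fos, Junb, Egr1, Egr2, Egr4, Nr4a1 and Fosb.

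Among the AP-1 genes, Fos (chr12:85473890-85477273), the best known marker of neuronal activation, measured 40.1 CPM in FDM 1 and 33.4 CPM in FDM 3. In the control eyes it measured 55.6, 28.7 and 56.1 CPM in mice 1, 2 and 3. Control 2 was thus the lowest of the 5, and the groups overlapped although each goggled eye lay well below its own partner. Junb (chr8:84974484-84978718), which generally dampens transcription by other Jun pairs, was likewise lowest in Control 2 and highest in Controls 1 and 3, with 16.5 and 16.7 CPM in the FDM eyes and 24.0, 16.0 and 24.6 CPM in the controls. Part of Junb overlaps Prdx2 on the opposite strand, which shares 6.51% of its 31-base words, and reads there cannot be told apart without strand. Fosb (chr7:19302696-19310051), whose products build up with repeated stimulation, was the member of this family whose groups did not overlap, at 3.83 and 4.03 CPM in FDM against 5.31, 4.23 and 5.09 CPM in controls. Its FDM 3 and Control 2 values were nearly equal, with a log2 ratio of -0.07 on 194 and 241 counts. The fitted log2 fold changes, FDM minus control, were -0.35 ± 0.28 (SE) for Fos, -0.37 ± 0.18 for Junb and -0.31 ± 0.15 for Fosb. Leaving out 1 library moved them most through Control 2 and Control 3, from -0.59 without Control 2 to -0.19 without Control 3 for Fos and from -0.54 to -0.26 for Junb. For Fosb the range was -0.39 without Control 2 to -0.24 without Control 1.

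Within the Egr family, Egr1 (gene span chr18:34859823-34864984), a zinc finger activator, varied most of all members between libraries. It reached 74.3 and 39.7 CPM in FDM 1 and FDM 3, and 119, 29.5 and 87.8 CPM in the controls of mice 1, 2 and 3. FDM 1 was above Control 2, so that the groups overlapped widely, and the fitted log2 fold change of -0.47 ± 0.53 was smaller than its error. It ran from -0.99 without FDM 1 to -0.04 without Control 1. Egr4 (chr6:85511121-85513589), which acts beside Egr1 and Egr3 in neurons, was at 1.13 and 0.603 CPM in FDM and at 1.75, 1.07 and 2.46 CPM in controls, with only FDM 1 and Control 2 out of order. Egr3 (chr14:70077203-70082614), itself a target of the other Egr factors, was at 0.323 and 0.312 CPM in FDM and 0.751, 1.16 and 0.484 CPM in controls, so both goggled eyes lay below every control. Control 2 was the highest library for Egr3 and the lowest control for Egr4. The log2 fold changes were -1.02 ± 0.41 for Egr4 and -1.34 ± 0.42 for Egr3, on 29 to 117 and 14 to 66 counts per library. For Egr3 the value was -0.93 without Control 2 and -1.59 without Control 3, and for Egr4 it was -0.63 without FDM 3 and -1.54 without FDM 1. Egr2 (chr10:67535475-67542188), known for myelin formation in Schwann cells, stood at 0.184 and 0.104 CPM in FDM and 0.300, 0.0877 and 0.189 CPM in controls, on so few counts that a difference was not detectable.

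The nuclear receptors separated into different patterns. Nr4a1 (chr15:101254269-101274795), the most abundant of them, was also lowest in Control 2 and highest in Controls 1 and 3, at 57.3 and 48.1 CPM in FDM and 75.5, 41.7 and 73.5 CPM in controls. Nr4a2 (chr2:57106830-57124003), needed for dopaminergic neurons in the midbrain, measured 9.62 and 9.48 CPM in FDM and 9.77, 12.2 and 12.3 CPM in controls. Both goggled eyes were below every control for Nr4a2, but FDM 1 and Control 1 were nearly equal. Nr4a3 (chr4:48045153-48086447) was low in both eyes of mouse 1, at 2.12 CPM in FDM 1 and 2.70 CPM in Control 1. It stood at 4.01 CPM in FDM 3, 8.17 CPM in Control 2 and 7.49 CPM in Control 3, a wider separation between mice than between the eyes of mouse 1. The RPE marker sum was likewise 78.7 CPM in Control 1 and 246 and 233 CPM in Controls 2 and 3, and its part in the Nr4a2 and Nr4a3 values was not tested. Fitted log2 fold changes were -0.27 ± 0.25 for Nr4a1, -0.26 ± 0.13 for Nr4a2 and -1.0004 ± 0.4769 for Nr4a3. Leaving out 1 library, Nr4a1 ran from -0.49 without Control 2 to -0.13 without Control 1, Nr4a2 from -0.36 without Control 1 to -0.20 without Control 3, and Nr4a3 from -1.53 without FDM 3 to -0.62 without FDM 1.

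Across the 9 members that were fitted, 9 had a log2 fold change below 0, as did 55.6% of all genes, with a median of -0.37 beside -0.01 over all genes. An unadjusted p below 0.05, the threshold used in the study, was reached on the lower side by Egr3 and Egr4, 2 of 9 members, and by 1.16% of all genes (edgeR's quasi-likelihood test). No gene in the table, member or not, had a Benjamini-Hochberg adjusted p below 0.05 in this edgeR fit, which has no block for the mouse. DESeq2 gave 3 such genes, none of them a member. For 3 members each FDM value was under the lowest control value (Fosb, Egr3 and Nr4a2), and the same held for 6.67% of genes. The count of 2 under the unadjusted threshold depended on the libraries and the method. It was 1 without Control 3, where 96 of all genes were lower. It was 3 without Control 1, beside 558 of all genes, and 7 without Control 2, beside 195. In limma it was 4, beside 198 or 192 by pseudocount, and with no count filter 4, beside 359 of 24659 genes. Egr4 was not under it without FDM 3, Control 1 or Control 3, and Egr3 was not without FDM 3. All these counts describe genes chosen for this difference and are no test of them.

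The eyes of one animal gave a more even picture. All 10 members were lower in the goggled eye in both mice, and so were 30.3% of the genes tested. For 8 of the 9 fitted members the difference exceeded 0.25 on the log2 scale in both mice, which 3.01% of all genes did. The median log2 ratio over those 9 was -0.47 in mouse 1 and -0.64 in mouse 3. Egr1 had ratios of -0.68 (95% interval -0.75 to -0.62) in mouse 1 and -1.14 (-1.22 to -1.07) in mouse 3. Fos gave -0.47 (-0.56 to -0.38) and -0.75 (-0.84 to -0.66), and Nr4a1 gave -0.40 (-0.47 to -0.32) and -0.61 (-0.69 to -0.54). Those 3 abundant genes differed less in mouse 1 than in mouse 3 by more than their intervals, which are exact binomial, given the library sizes, and cover counting error only.

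Junb and Fosb were lower by like amounts in both animals, at -0.54 (-0.68 to -0.40) and -0.56 (-0.69 to -0.43) for Junb and at -0.47 (-0.77 to -0.17) and -0.34 (-0.62 to -0.06) for Fosb. Egr4 showed the widest gap between mice, with -0.63 (-1.19 to -0.09) in mouse 1 and -2.03 (-2.67 to -1.43) in mouse 3. Egr3 had -1.22 (-2.25 to -0.26) and -0.64 (-1.68 to 0.37), and Egr2 had -0.70 (-2.20 to 0.71) and -0.87 (-2.79 to 0.87). The Egr2 intervals and the Egr3 interval of mouse 3 hold 0, so depth does not resolve these. Nr4a2 gave -0.02 (-0.22 to 0.18) and -0.38 (-0.56 to -0.20), and Nr4a3 gave -0.35 (-0.77 to 0.06) and -0.90 (-1.16 to -0.64). For both of these the interval excluded 0 only in mouse 3. In that mouse RPE markers in the goggled eye summed to 0.298 times the level of its partner. Lens and skeletal muscle markers summed there to 180 and 0.168 times their level in the partner. In mouse 1 the RPE markers summed to 0.983 times the level of the partner, though single RPE markers differed more. The part of these other tissues in the member ratios was not tested.

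**Figure D3:**
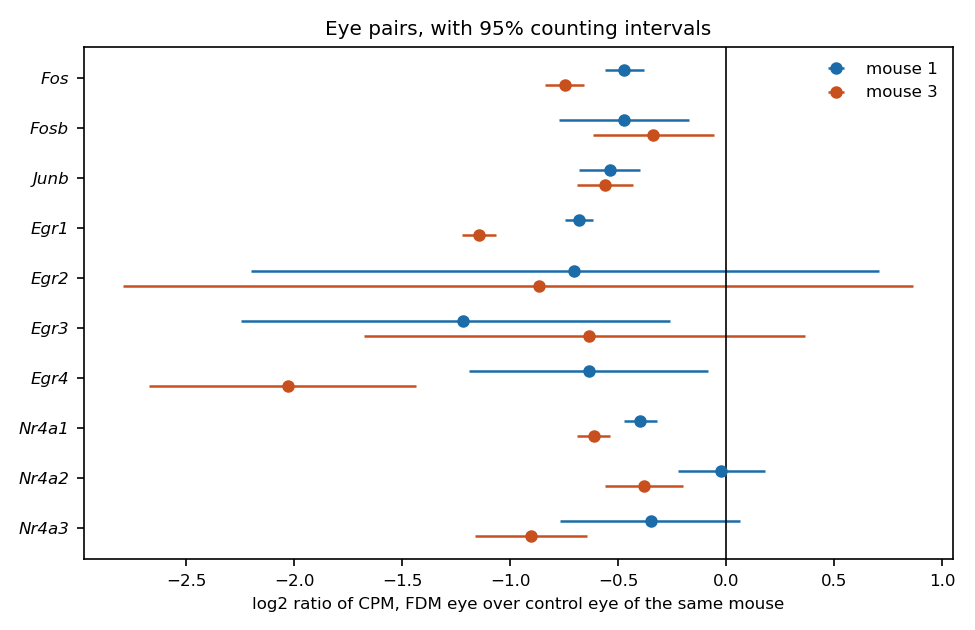
Log2 ratio of CPM in the FDM eye over the control eye of the same mouse (horizontal axis) for the 10 members, mouse 1 and mouse 3 in separate colours. Bars are 95% counting intervals, and the vertical line marks no difference. All 20 points lie left of the line, and Fos, Fosb, Junb, Egr1, Egr4 and Nr4a1 have both bars wholly left of it. Bars cover counting error only and were computed for the members only, so no share over all genes can be set beside them.

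With the mouse as a replicate block in the fit, the median log2 fold change of the members was -0.61. It was -0.91 ± 0.10 for Egr1, -0.61 ± 0.08 for Fos, -0.55 ± 0.06 for Junb and -0.51 ± 0.07 for Nr4a1. These ± values borrow variance from other genes and do not measure the spread between the 2 mice, whose pair ratios for Egr1 were -0.68 and -1.14. In this fit 8 members had an unadjusted p below 0.05 on the lower side (edgeR), as had 3.67% of all genes. After Benjamini-Hochberg adjustment 4 members stayed below 0.05 on that side, as did 0.178% of all genes. A block by the replicate number of the labels, which sets FDM 3 beside Control 2, gave a median of -0.24 and smaller differences for the same genes, at -0.13 for Egr1, -0.13 for Fos, -0.24 for Junb and -0.10 for Nr4a1. There 3 members (Egr3, Egr4 and Nr4a3) were under the unadjusted threshold on the lower side (edgeR), as were 1.78% of all genes. After adjustment 1 member was below 0.05, as were 128 of all genes in either direction. Like the counts without a block, these describe genes chosen for this difference and are no test of them. Each block leaves 1 residual degree of freedom. Set against Control 2, an eye of another animal, the FDM 3 library gave a median log2 ratio over the members of -0.07 in place of -0.64.

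The members did not share a single pattern over the libraries. On log2(CPM + 0.5) values centred on each gene, Fos, Junb, Nr4a1 and Egr1 were above their mean in Controls 1 and 3 and lowest in Control 2, at -0.52, -0.26, -0.46 and -1.06. Egr4 and Fosb were also highest in Controls 1 and 3, but had their lowest value in an FDM library. Nr4a3 and Nr4a2 were instead highest in Controls 2 and 3, at 0.84 and 0.73 for Nr4a3. Egr3 was highest in Control 2, at 0.64, and next in Control 1, at 0.23. This grouping was made after the values were seen. The spread from the highest to the lowest library was 1.99 for Egr1 and 0.36 for Nr4a2.

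**Figure D4:**
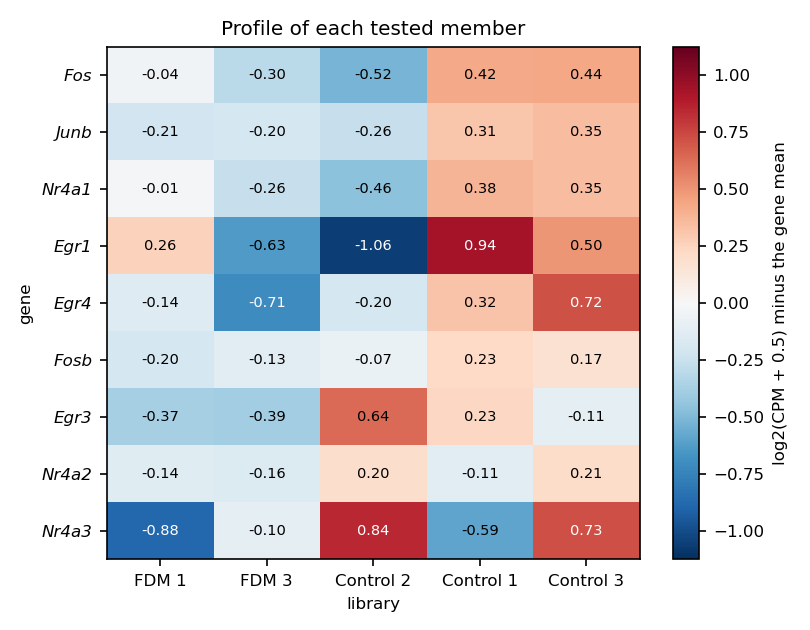
Centred log2(CPM + 0.5) of the 9 fitted members (rows) in the 5 libraries (columns, Control 2 set beside the FDM libraries). Colour and printed number give the difference from the gene's mean. Control 2 is low in the upper rows and high in Egr3, Nr4a2 and Nr4a3.

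The 10 genes with a mean of at least 1 CPM closest to the members' mean profile were taken from 14807 genes ranked by the root mean square difference of the centred log2 values over the 5 libraries. They were Pdk4, Tnnc1, Ccn1, Tcea3, Mylk4, St3gal6, Prph, Hs3st2, H2-T15 and Spry4, with differences of 0.057 to 0.108. The median over all genes was 0.28, and over the members themselves 0.23. Pdk4, a kinase that restrains pyruvate use, came first, at 0.969 and 0.873 CPM in FDM and 1.33, 1.12 and 1.64 CPM in controls. It had only 42 to 78 counts per library, so its place in the order is limited by counting error. Ccn1, a secreted matrix protein gene with rapid induction of its own, was at 2.93 and 2.81 CPM in FDM and 3.91, 2.93 and 4.06 CPM in controls. Of the 10 genes, 8 were also found without Egr1, and 8 with a pseudocount of 0.1.

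The other genes of the pathway were examined as 5 lists with 99 genes tested, of which 10 were lower in FDM at an unadjusted p below 0.05 and 0 higher, beside 1.16% lower and 0.453% higher of all genes (edgeR's quasi-likelihood test). After Benjamini-Hochberg adjustment in edgeR each of the 10 stood at 0.99999. Blocking on the mouse, 23 were lower and 2 higher, beside 639 lower and 622 higher of all 17432 genes tested. The 10 became 13 without Control 1, 16 without Control 2 and 4 without Control 3, beside 558, 195 and 96 lower of all genes. The lists, like the members, were chosen with earlier results of these data known, so these counts are no test of them.

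Of the other AP-1 subunits, 2 of 7 tested fell and the median log2 fold change was -0.11. Fosl2, a Fos relative, measured 6.34 and 7.71 CPM in FDM and 9.16, 18.03 and 17.89 CPM in controls (log2 fold change -1.10 ± 0.29, unadjusted p = 0.0067 in edgeR). Maff, a small Maf protein that pairs with AP-1 type factors, was at 0.669 and 0.977 CPM in FDM and 1.13, 1.51 and 1.49 CPM in controls (-0.74 ± 0.26, unadjusted p = 0.023 in edgeR). Both were lower in the goggled eye of each pair, and Fosl2 was highest in Controls 2 and 3, where RPE markers were too. Jun, the main partner of Fos, had a log2 fold change of 0.12 ± 0.10 and Fosl1 one of 0.05 ± 0.15, neither past the threshold.

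Among 29 other rapid primary response genes, 3 fell, and the median was -0.09. Ccn2, a secreted matrix protein gene, fell by 1.09 ± 0.38 on the log2 scale (unadjusted p = 0.023 in edgeR), with 18.7 and 26.4 CPM in FDM and 30.7, 37.6 and 75.4 CPM in controls. Plk2, a kinase that tunes synapses, fell by 0.29 ± 0.11 (edgeR, unadjusted p = 0.028), and Csrnp1, a nuclear factor, by 0.38 ± 0.15 (edgeR, unadjusted p = 0.035). Myc, the growth regulator, and Ier5 did not pass, at 0.24 ± 0.25 and 0.07 ± 0.11.

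Activity-induced effectors and MAP kinase phosphatases, which act on synapses or switch the kinases off again, had 4 of 21 lower and a median of -0.19. Arc, which regulates glutamate receptors at synapses, was at 1.52 and 1.56 CPM in FDM and 2.00, 2.10 and 2.84 CPM in controls (-0.59 ± 0.21, unadjusted p = 0.026 in edgeR). Spry4, an inhibitor of growth factor signalling, fell by 0.41 ± 0.11 on the log2 scale (unadjusted p = 0.0070 in edgeR). Vgf, a neuropeptide precursor gene, fell by 0.37 ± 0.15 (unadjusted p = 0.041 in edgeR). Dusp4, a nuclear phosphatase, fell by 0.21 ± 0.09 (unadjusted p = 0.044 in edgeR). Inhba and Dusp2 had 0.08 ± 0.11 and 0.15 ± 0.43. In the fit blocked on mouse, Vgf and Dusp1, both in this list, had adjusted p values of 0.012 and 0.0032 (edgeR, Benjamini-Hochberg). Ccn2 and Fosl2 had 0.015 and 0.045 in the same test. Of all 17432 genes, 31 were lower and 23 higher past the adjusted threshold in that fit, which leaves 1 residual degree of freedom. Without a block the number past it was 0. Csrnp1, Vgf, Dusp4 and Dusp1 are named because their values passed, not by the naming rule.

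The kinases and transcription factors that act upstream of the members had 0 of 35 genes past the unadjusted threshold (edgeR) and a median of 0.00. Creb1, the CRE binding factor, had a log2 fold change of -0.13 ± 0.15, Crem -0.12 ± 0.15, Atf1 0.07 ± 0.09 and the kinase Araf 0.07 ± 0.09. Blocking on the mouse put 2 of the 35 past that threshold on the higher side, as it did 622 of all 17432 genes. Of 8 cofactors and targets of the Egr and Nr4a factors, 1 fell. This was Nab2, a corepressor that binds Egr proteins and is induced by them, at 15.3 and 16.0 CPM in FDM and 20.6, 26.3 and 20.7 CPM in controls (-0.53 ± 0.13, unadjusted p = 0.0045 in edgeR). It was lower in the goggled eye of both pairs, by 0.43 and 0.37 on the log2 scale. Ddc, the last enzyme of dopamine synthesis, had -0.20 ± 0.19, and the Nr4a partners Rxra and Rxrg had 0.02 ± 0.09 and 0.09 ± 0.13.

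**Figure D5:**
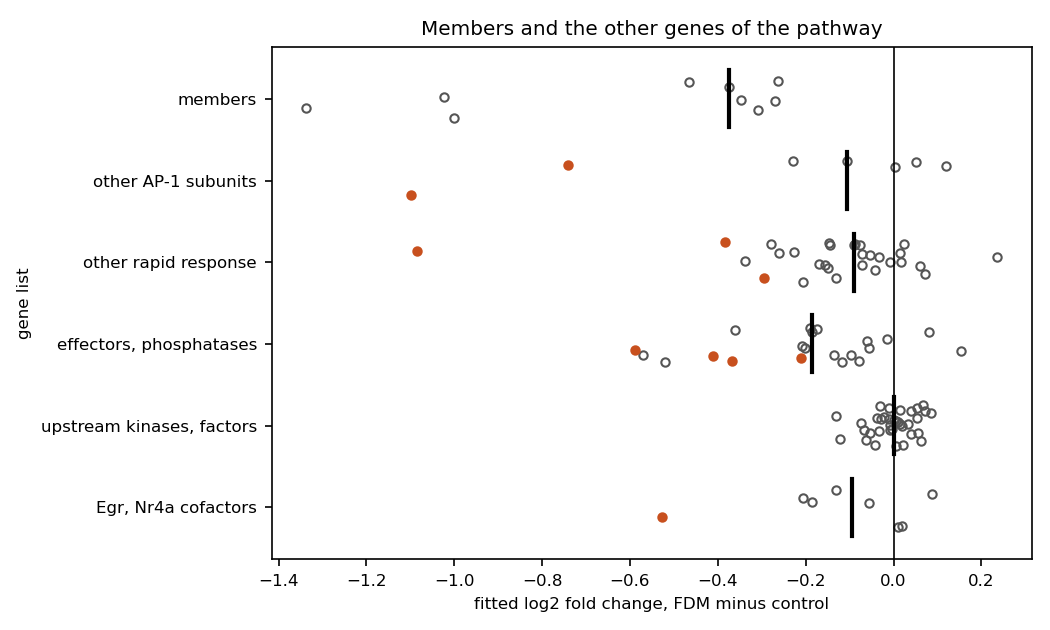
Fitted log2 fold change, FDM minus control (horizontal axis), of each tested gene of the members and of the 5 other pathway lists. Filled points had an unadjusted p below 0.05 (not marked for the members), and bars are medians. The members' median of -0.37 lies left of the other lists, whose medians run from -0.19 to 0.00.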

How the data were processed

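Poly-A RNA of 5 mouse retinas was sequenced. The authors trimmed reads with Trimmomatic 0.39 and quantified transcripts with Salmon 1.10.1 (GRCm38/mm10, R 4.3.1, per the submitters' processing notes), and deposited estimated counts per gene, written as whole numbers and analysed as deposited. A deposited table of size-factor normalized counts, a signal without a further unit, was used only for the limma fits and an alternative pair ratio. All columns were mapped to samples or groups.

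Testing used edgeR 4.0.16 (R 4.3.3) on genes exceeding 10 counts in 2 libraries or more (TMM factors, quasi-likelihood test, 17432 genes, Benjamini-Hochberg adjustment), with all 5 libraries in one fit. Each SE is the absolute log2 fold change over the square root of the test's F value, with variance moderated across genes. The script was tested on simulated data. CPM values use TMM-scaled library sizes, and precision is limited by 40599047 to 56534931 counts per library and by 2 FDM libraries. The FDM library of mouse 2 was left out by the authors for read duplication. The mouse of each library came from the study's supplement, which numbers as 3 the FDM library whose label says 2. Deviations from the group means correlated at 0.26 across genes for the eyes of mouse 1 and 0.12 for those of mouse 3, beside 0.16 for FDM 3 with Control 2. With 2 FDM libraries their deviations are exact opposites. These values are therefore not independent and give no separate check of the mouse 3 pair. No pair of libraries agreed within sampling noise (lowest chi-square per degree of freedom 12.0).

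The members and lists were chosen with earlier results of these data known, so calls of members are given as counts only and are no test of them. The counts and p-values of list genes are likewise a description and no test of the lists. Named genes were, per list, the 2 lowest p-values on either side. Alternatives were other scaling factors, filters, DESeq2 1.42.0, limma 3.58.1 on log2(normalized count + 1 or 0.1), blocks by mouse or by label number, and leaving out each library. Gene positions are from GENCODE on GRCm38. The TATA box search was added after the other motifs. Protein sequences were not analysed here.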

Additional observations from a re-analysis of the deposited data

How the results depend on the processing

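The members' median log2 fold change stayed between -0.59 and -0.27 when 1 library was left out, and 9 of 9 members stayed below 0 in every alternative fit. With the replicate block by mouse, genes lower, higher and past the adjusted threshold numbered 639, 622 and 54 in place of 202, 79 and 0, pathway genes lower and higher 23 and 2 in place of 10 and 0, and Egr3 moved from -1.34 to -0.93. With the replicate block by label number, which sets FDM 3 beside Control 2, they numbered 310, 129 and 128, 6 pathway genes were lower, and the members' median was -0.24 with 3 members lower, beside -0.61 with 8 lower in the block by mouse. No count filter gave 359 lower and 139 higher genes, and DESeq2 gave 36 higher and 3 adjusted. Leaving out 1 library gave 96 to 558 lower, 32 to 386 higher and 0 to 16 adjusted genes, 3 to 16 pathway genes lower and 0 to 1 higher. Where 1 FDM library remained, it was assumed to vary like the controls. Against Control 2, the median pair ratio of FDM 3 was -0.068. Genes not past the threshold changed sign as follows. With the replicate block by mouse, Fosl1 was at -0.039, Ier5 at -0.0063, Creb1 at 0.035 and Rxra at -0.017. With 1 library left out, Fosl1 ran from -0.030 (without Control 2) to 0.15, Creb1 from -0.24 to 0.043 (without Control 2) and Rxra from -0.0081 (without Control 2; -0.0054 without FDM 1) to 0.078. Fosl2 and Nab2 kept an unadjusted p below 0.05 in every alternative, while Dusp4 lost it in 7, Vgf in 6, Csrnp1 in 5, Arc, Maff and Plk2 in 4 each, and Ccn2 and Spry4 in 1 each. The causes were not tested. Egr2 and Egr3 are limited by depth, and 2 FDM libraries limit every comparison.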
